A study of Mus musculus with 12 samples.

Results

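Integrins are the membrane receptors with which cells hold on to matrix and to each other, and laminins are matrix proteins of the basement membrane that several integrins bind. The genes of both families were followed in mouse bone marrow mesenchymal stem/stromal cells (MSCs) cultured with or without hematopoietic stem/progenitor cells (HSCs). Members were all probe sets annotated with a single gene symbol that names an integrin subunit or a laminin chain, a rule that itself uses no measured value, although it was set with earlier results of these data known. These were 73 of the 45037 probe sets on the array and covered 34 of 18193 genes, namely 24 integrin subunits and 10 laminin chains. Since 20 of the 34 genes had several probe sets, values by gene are those of the brightest one, taken as the mean over the 12 arrays.

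An integrin consists of 1 alpha and 1 beta subunit, and the pair decides what it binds. Itgb2 pairs with Itgal, Itgam and Itgax on leukocytes, whereas Itgb1 and Itgav form receptors for fibronectin, vitronectin, collagen or laminin on stromal cells and on many other cells. A laminin is made of an alpha, a beta and a gamma chain, and in bone marrow laminins lie around vessels and in the stroma on which hematopoietic cells rest.

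The study compared 2 groups of 6 samples. In the co-culture group (n = 6), Sca-1+ Pdgfra+ MSCs had been kept for 6 days with Lin- Sca-1+ c-Kit+ HSCs, at 3000 MSCs and 7000 HSCs a well. The MSC-only group (n = 6) consisted of the same kind of MSCs without HSCs. The cells of both groups were described as bone marrow of male C57BL6/J mice aged 6 weeks, grown in IMDM with 20% fetal bovine serum. The sources used here do not state which arrays came from direct contact or from transwell inserts, whether the cells were sorted again before RNA extraction, or whether the 6 samples of a group were separate cultures or animals, so p-values measure only the spread between these 12 samples. Total RNA was hybridised to Affymetrix Mouse Genome 430 2.0 arrays, and the measure throughout was the linear array signal, which depends on the probes and does not rank the transcript amounts of different genes. Differences are co-culture minus MSC-only on log2(signal + 16), a scale that understates the change of dim genes.

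The arrays were closely alike in scale, with medians of 77.2 to 89.0 in the co-culture group and 74.8 to 85.5 in the MSC-only group. Sex-linked signals went against the male label on 8 arrays. Xist, the RNA of the inactive X chromosome of female cells, read 13136 to 17840.2 in the 6 co-cultures, against 60.5 to 118 in MSC-only cultures 1, 2, 5 and 6 and 16809.6 to 21978 in MSC-only cultures 3 and 4. The Y-linked gene Eif2s3y read 1022 to 1331 in co-cultures 1, 2, 5 and 6 and 0.8 to 13.6 in co-cultures 3 and 4, against 2604 to 2845 in MSC-only cultures 1, 2, 5 and 6 and 0.5 to 1.3 in MSC-only cultures 3 and 4. Co-cultures 1, 2, 5 and 6 thus carried both signals, and the origin of this was not tested. Values without the arrays numbered 3 and 4 are given beside the main ones for part of the members with values by culture. These are mainly those where the sign turned or the size changed by over 1.5 times. Where none is given, as for most dim members and for genes outside the family, the difference may also change without these arrays. Leaving them out does not remove the mismatch. Xist then read 13136 to 16604 in every co-culture left and 60.5 to 118 in every MSC-only culture left. Group and Xist signal cannot be told apart in that comparison, so its values are no cleaner than the main ones. Some leukocyte and some stromal genes were bright in both groups: Ptprc, the pan-leukocyte surface phosphatase, averaged 12044 ± 387 in co-cultures and 11941 ± 1265 in MSC-only cultures, and Pdgfra, the receptor used to sort the MSCs, averaged 725 ± 415 and 789.8 ± 223 in the same order (SD, n = 6 each). Of the stromal markers, Lum, Thy1 and Lepr were dim, at 47.0, 52.9 and 64.8 over the 12 arrays. The 13 macrophage markers summed to 272609.7 to 354958 in co-cultures and 265813 to 359574 in MSC-only cultures, and the 13 stromal markers to 23877 to 53099.9 and 26738 to 54423. The gate for MSCs excluded CD45+ and CD31+ cells, so that the bright Ptprc, the gene of CD45, went against the sorted phenotype in both groups. Kit, by which the added HSCs were sorted, averaged 37.4 ± 20.0 in co-cultures and 47.3 ± 12.3 in MSC-only cultures, and Cd34, a progenitor marker outside that gate, 52.6 ± 18.2 and 28.1 ± 20.2 (difference 0.74 ± 0.31, SE; limma adjusted p of 0.996 or more). Fewer cells of a type and less RNA per cell cannot be told apart in such bulk samples.

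No integrin or laminin gene passed the test between the groups. With limma and p-values adjusted by Benjamini-Hochberg across the whole array, 0 of the 73 member probe sets had an adjusted p under 0.05, against 2 of all 45037 (0.00444%), and the lowest adjusted p of a member was 0.996. At an unadjusted p under 0.05, 2 of 73 member probe sets were lower in co-cultures, against 700 of all probe sets (1.55%), and 0 of 73 were higher, against 1264 (2.81%). Without the arrays numbered 3 and 4, 4 member probe sets were lower, against 1276 of all probe sets (2.83%), and 1 was higher, against 1809 (4.02%). Without co-culture 6 alone, 6 member probe sets were lower, against 723 (1.61%), and 2 were higher, against 1186 (2.63%). With quantile normalization the split over all probe sets was 919 higher and 1010 lower, with centring on the median 893 and 1065, and with centring on the 75th percentile 1382 and 622. Of the 34 genes, 14 had the higher mean in co-cultures and 20 the lower, with a median difference of -0.03, against 0.01 over all 18193 genes. Among members with a mean signal of 100 or more, the widest differences lay between cultures of the same group, in Itgax.

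**Figure D1:**
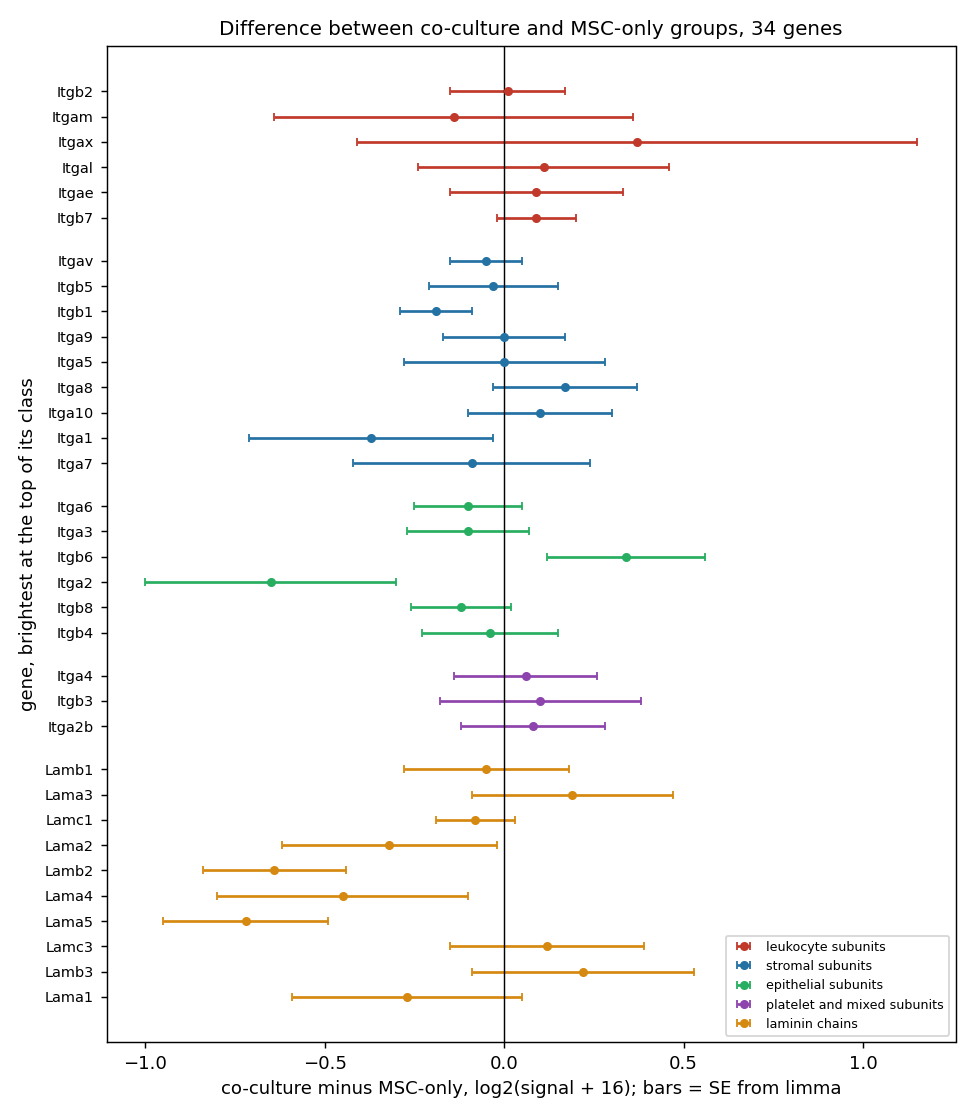
Difference of each of the 34 genes between the co-culture and MSC-only groups (x axis, co-culture minus MSC-only on log2(signal + 16)), with genes on the y axis ordered by signal within 5 classes and bars giving the limma standard error (n = 6 each). Lama5 at -0.72, Itga2 at -0.65 and Lamb2 at -0.64 lie farthest below 0, and Itgax at 0.37 has the widest bar.

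The leukocyte subunits comprised 6 measured genes, and 4 of them had a mean signal of 100 or more. Of the 6, 5 had the higher mean in co-cultures and 1 the lower, with a median difference of 0.09, or 0.24 without the arrays numbered 3 and 4. Itgb2, the common beta subunit of leukocyte integrins, read 8832, 10813 and 15706 (lowest, median and highest) in co-cultures and 9072, 11794 and 13472 in MSC-only cultures. It was thus bright on all 12 arrays and the groups overlapped, with a difference of 0.01 ± 0.16 (SE), or 0.08 without the arrays numbered 3 and 4. Its sign was below 0 with quantile normalization and with median centring.

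The alpha partners of Itgb2 varied far more. Itgax, the alpha subunit carried by dendritic cells and some macrophages, read 68.5, 299.6 and 1197 in co-cultures and 68.0, 274 and 1341 in MSC-only cultures. It was high in co-cultures 1 and 6 and in MSC-only culture 4, low in co-culture 3 and MSC-only cultures 1 and 5, and its highest value was 19.7 times its lowest. The difference between the groups was 0.37 ± 0.78 (SE), and 1.35 without the arrays numbered 3 and 4 (limma adjusted p = 0.821). Itgam, the alpha subunit of macrophages and neutrophils, read 269, 628 and 1569.6 in co-cultures and 378, 715 and 1746 in MSC-only cultures. Co-culture 6 and MSC-only culture 4 stood highest, the groups overlapped, and the difference of -0.14 ± 0.50 (SE) changed to 0.21 without the arrays numbered 3 and 4. Itgal, the alpha subunit of the lymphocyte receptor for ICAM proteins, read 171, 471 and 736 in co-cultures and 208, 442 and 577 in MSC-only cultures. Its lowest arrays were co-culture 4 and MSC-only cultures 1 and 2, of which MSC-only culture 1 was also low in Itgax, and its difference was 0.11 ± 0.35 (SE), or 0.76 without the arrays numbered 3 and 4. Itgae and Itgb7, subunits of lymphocytes in epithelia and gut, were dim, with means of 24.7 and 11.5 over the 12 arrays. The gates removed leukocytes from the MSCs by CD45 and myeloid cells from the HSCs by CD11b, the product of Itgam. Neutrophil markers, which share Itgam and Itgb2 with macrophages, had the higher mean in co-cultures in 5 of 6 genes, with a median difference of 0.46. Cxcr2 averaged 30.3 ± 11.8 in co-cultures and 10.5 ± 5.79 in MSC-only cultures (difference 0.79 ± 0.20, SE; limma adjusted p = 0.734), and Elane 44.0 ± 16.1 and 22.6 ± 10.9 (difference 0.63 ± 0.22, SE). These 2 had the largest differences of the list and were dim. The differences of Csf3r, S100a8, Mpo and S100a9 were 0.01, 0.43, 0.49 and -0.05. Other dim marker lists also leaned higher in co-cultures, in 6 of 6 lymphocyte, 6 of 6 endothelial and 5 of 6 epithelial genes, but platelet markers in 3 of 6. The neutrophil markers summed, mostly through Csf3r and S100a8, to 1061 to 1517 in co-cultures and 916 to 1355 in MSC-only cultures, and their part in the values of the leukocyte subunits was not tested.

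**Figure D2:**
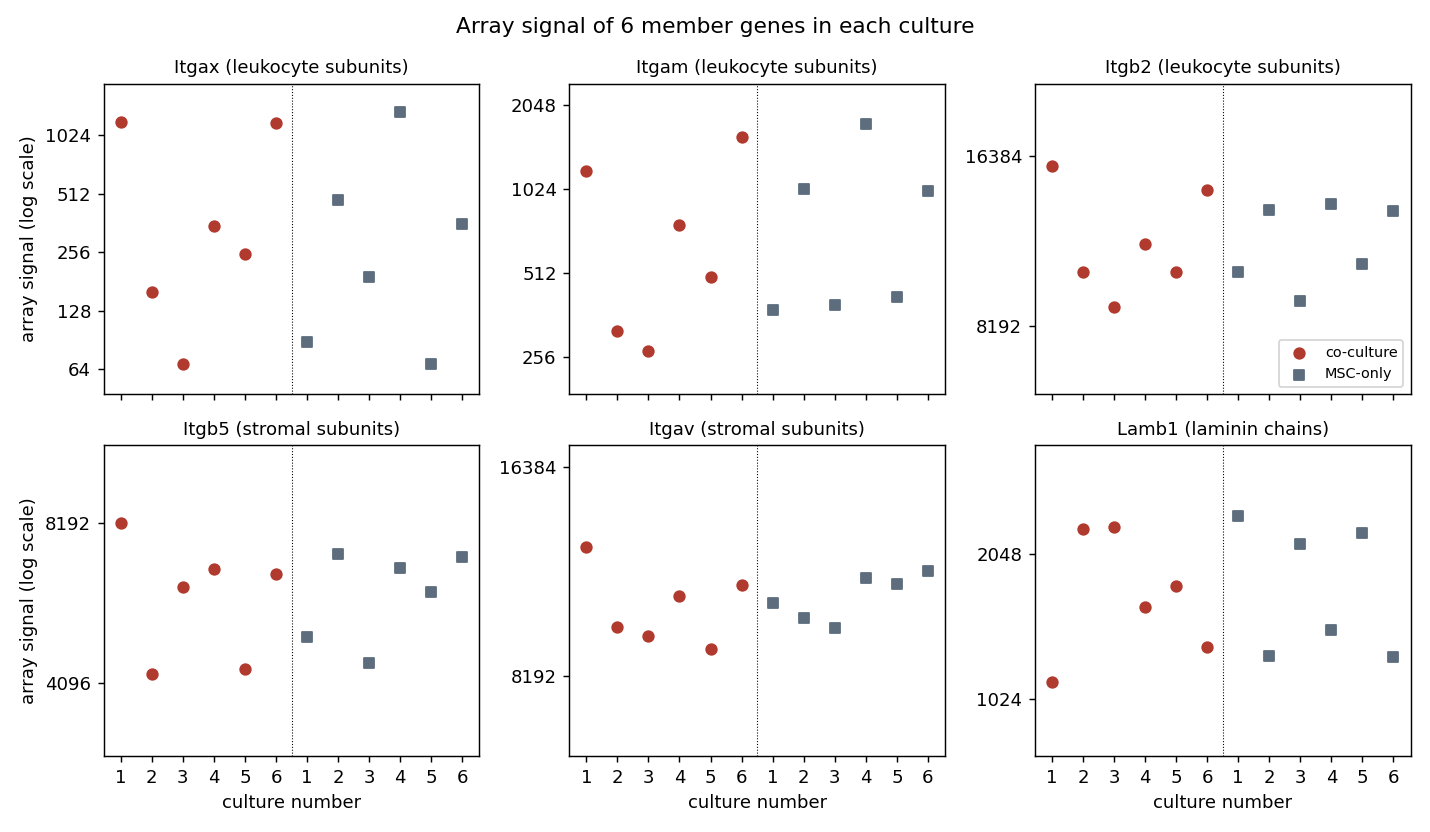
Array signal (y axis, log scale) of 6 genes in each of the 6 co-cultures (red circles, left) and 6 MSC-only cultures (grey squares, right), with the culture number on the x axis. Itgax spans 68.0 to 1341 and Lamb1 1111 to 2453, and the groups overlap in every panel.

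The alpha subunits of leukocytes spread widely between cultures of either group. Over the 12 arrays, the SD of log2(signal + 16) was 1.46 for Itgax, 0.91 for Itgam, 0.64 for Itgal and 0.27 for Itgb2, with a median of 0.78. The 5 stromal subunits with a mean signal of 100 or more had a median SD of 0.29, from 0.15 for Itgav to 0.50 for Itga5. Over all 10180 genes of that brightness the median was 0.19, and since dim genes scatter more, each member was also set against genes of its own signal range. Of the genes between 300 and 1000, 99.9% had a smaller SD than Itgax, 99.0% than Itgam and 97.0% than Itgal. Among genes of 3000 or more, 83.8% lay below Itgb2, 89.2% below Itgb5, 56.6% below Itgb1 and 48.8% below Itgav. Wide spread was not confined to leukocyte subunits. In their own ranges the share was 94.8% for Itgb3, 94.2% for Lamb1, 90.7% for Lama2, 90.2% for Itga4, 87.9% for Lama3 and 86.8% for Itga5. It was 81.0% for Itga6, 69.9% for Itga2b, 51.3% for Itga9, 49.9% for Itga3 and 9.47% for Lamc1. Of the stromal markers, Dcn, Cxcl12 and Col3a1 had SDs of 1.15, 1.14 and 1.02, above that of Itgam. Itgal and Itgax both varied widely, and only 2 of their 6 highest arrays were the same. These spreads are descriptions and carry no test.

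**Figure D3:**
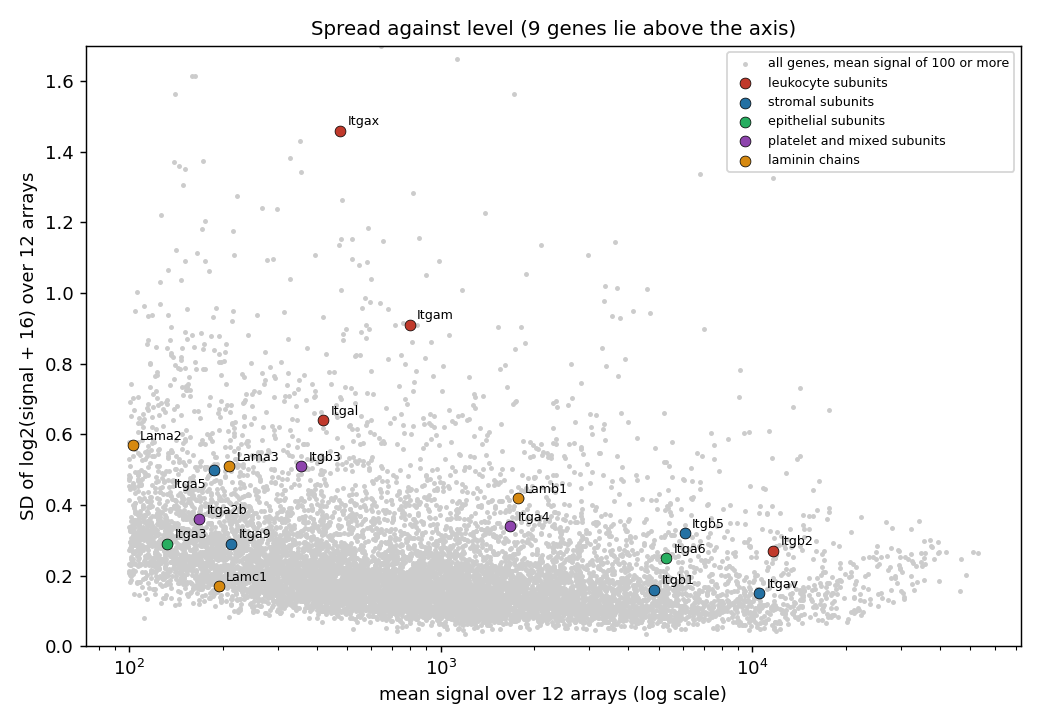
SD of log2(signal + 16) over the 12 arrays (y axis) against mean signal (x axis, log scale) for the 18 members with a mean signal of 100 or more (coloured by class) and for all 10180 genes of that brightness (grey, 9 of them above the axis). Itgax at 1.46 and Itgam at 0.91 stand above the other members, and Lamc1 at 0.17 is near the bottom of its range.

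The 6 arrays with the most Itgax were co-cultures 1, 4 and 6 and MSC-only cultures 2, 4 and 6, so that each group supplied 3. Several members had the same 6 highest arrays. All 6 were shared by Itgam and Itgb2 of the leukocyte class and by Itgb5 and Itga5 of the stromal class, and 5 of 6 by Itgav, Itga6 and Itgb3. The opposite held for others: Lamb1 and Lama2 shared 0 of the 6, and Lamc1, Itga9, Itga4 and Itga2b shared 1. Of the 17 other members with a mean signal of 100 or more, 7 (41.2%) shared 5 or 6 arrays and 6 (35.3%) shared 0 or 1, while the shares over all 10179 other genes of that brightness were 19.6% and 20.5%. Summed over its class, the signal of the laminin chains shared 0 of these arrays, and the sums of the leukocyte and of the stromal subunits each shared 6. These sums mostly repeat their brightest genes, which averaged 1765 (Lamb1), 11674 (Itgb2), and 10529, 6062 and 4851 (Itgav, Itgb5 and Itgb1). Other genes of these classes differed: Lama5, Lamb2 and Lamc3 shared 3, Itgal shared 2, and Itgb1 itself shared 4.

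Genes outside the family moved with the same arrays in part. Adgre1, the F4/80 antigen of macrophages, shared 6 of the 6 highest arrays with Itgax, and Ptprc shared 5, whereas Csf1r, the receptor for macrophage colony-stimulating factor, and Lyz2, the macrophage lysozyme, shared 1 each. The summed macrophage markers shared 2, the summed stromal markers 2 and the summed neutrophil markers 4. The HSC and progenitor markers summed to 457 to 1301 in co-cultures and 432 to 1363 in MSC-only cultures and shared 6, as did Procr, the brightest of them. This sum mostly repeats Procr, which averaged 577 over the 12 arrays. Cd34, Kit, Flt3 and Slamf1 shared 4, 3, 3 and 1. The part of all these markers in the spread of the integrins was not tested.

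**Figure D4:**
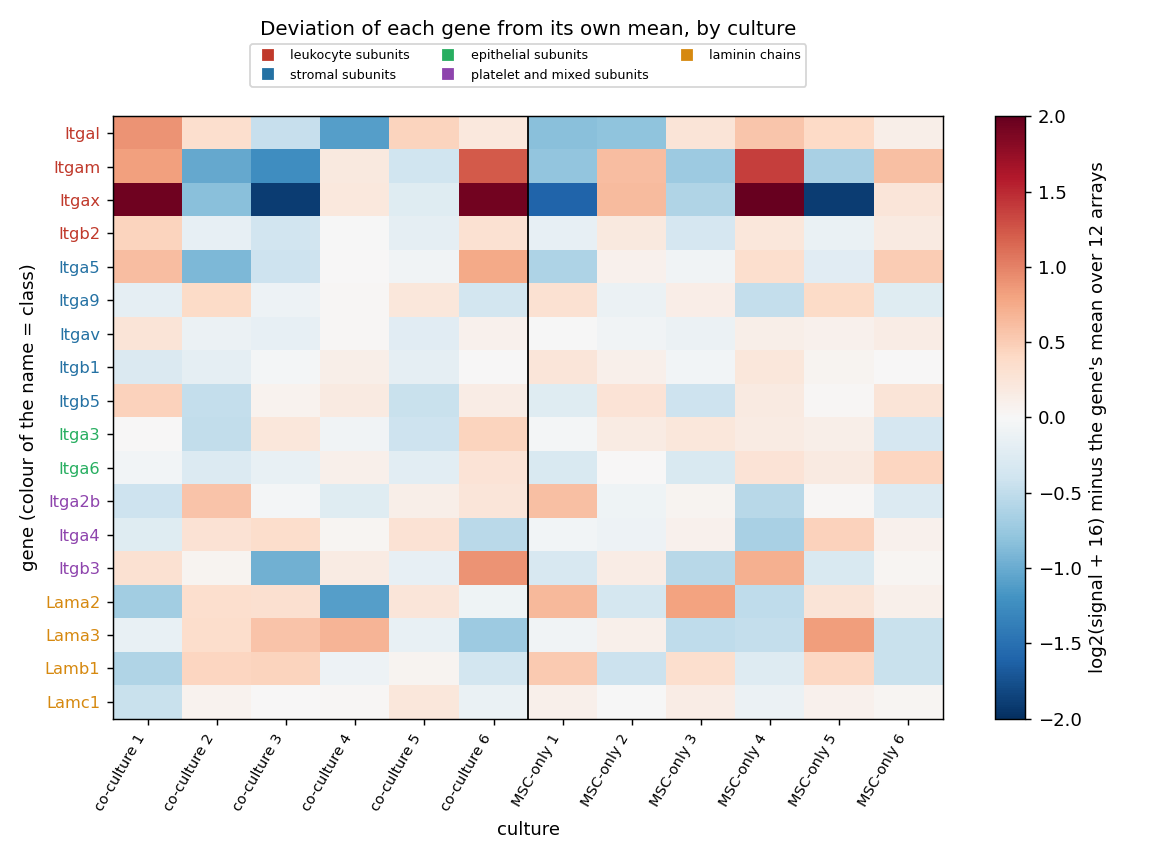
Deviation of each of 18 members with a mean signal of 100 or more (rows, coloured by class) from its own mean over the 12 arrays (colour scale, log2(signal + 16)), with the 6 co-cultures left of the 6 MSC-only cultures. Itgam, Itgax, Itgb2, Itga5 and Itgb5 are above their means in co-cultures 1 and 6 and MSC-only culture 4, and Lamb1 is below its mean there.

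Upstream sequences are shown for Itgam and Itgax, whose high arrays coincided, and for Lamb1, which was low on those arrays. They are the 250 bases before the start of each gene on its own strand, from RefSeq on build GRCm38.p6, with matches to 2 motifs in capitals. The motifs searched on both strands were GAGGAA, the core bound by the myeloid factor PU.1, and TGANTCA, the site of AP-1.
Itgam, chr7:128062390-128062639 (+): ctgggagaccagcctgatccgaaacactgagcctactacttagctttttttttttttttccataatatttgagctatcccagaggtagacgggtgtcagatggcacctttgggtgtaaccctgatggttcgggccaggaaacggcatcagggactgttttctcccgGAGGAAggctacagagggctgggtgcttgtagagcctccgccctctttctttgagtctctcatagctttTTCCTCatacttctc
Itgax, chr7:128129300-128129549 (+): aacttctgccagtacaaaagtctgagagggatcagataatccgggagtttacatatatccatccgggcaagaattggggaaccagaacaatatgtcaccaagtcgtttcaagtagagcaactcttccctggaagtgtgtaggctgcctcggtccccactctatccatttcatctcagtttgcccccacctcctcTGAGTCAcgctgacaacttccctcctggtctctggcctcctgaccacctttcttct
Lamb1, chr12:31265043-31265292 (+): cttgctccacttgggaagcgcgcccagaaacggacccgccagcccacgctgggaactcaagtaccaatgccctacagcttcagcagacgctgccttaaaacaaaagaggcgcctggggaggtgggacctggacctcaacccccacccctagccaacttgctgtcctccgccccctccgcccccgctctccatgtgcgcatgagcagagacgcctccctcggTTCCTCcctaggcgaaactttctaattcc
Itgam held GAGGAA on both strands, at 84 to 79 bases before the start and, on the opposite strand, at 15 to 10 bases. Lamb1 held it on the opposite strand at 29 to 24 bases, and Itgax held a TGANTCA match at 56 to 50 bases and no GAGGAA. Promoter windows were given for 22 of the 34 genes (25 windows), of which 12 (48.0%) contained GAGGAA, against 7639 of 32851 windows of all genes (23.3%). TGANTCA occurred in 1 of the 25 (4.0%), that of Itgax, against 2217 of all windows (6.75%). A match describes the letters of the window and no binding was measured.

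The stromal subunits comprised 9 measured genes, of which 5 had a mean signal of 100 or more. The name is that of the list, and which cells gave these signals was not tested. Their sum shared 6 of the 6 highest Itgax arrays, while the summed stromal markers shared 2. Of the 9, 2 had the higher mean in co-cultures and 7 the lower, and the median difference was -0.03. Itgav, the alpha subunit of the vitronectin receptors, read 8958, 10158 and 12587 in co-cultures and 9609, 10776 and 11605 in MSC-only cultures. It was steady, with the groups overlapping and a difference of -0.05 ± 0.10 (SE). Its 4 dimmer probe sets pointed the other way, with differences of 0.11 to 0.51, and none of them passed the test. Itgb5, which pairs with Itgav, read 4260.0, 6375 and 8174 in co-cultures and 4473, 6401 and 7161 in MSC-only cultures. Low values came from co-cultures 2 and 5 and MSC-only cultures 1 and 3, and the difference was -0.03 ± 0.18 (SE), or -0.16 without the arrays numbered 3 and 4.

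Itgb1, the beta subunit shared by most matrix receptors, was the stromal member nearest to a difference. It read 3952, 4476 and 5208 in co-cultures and 4666, 5114 and 5693 in MSC-only cultures, with means of 4528 ± 467 and 5173 ± 417 (SD, n = 6 each). Co-cultures 1, 2 and 5 lay below every MSC-only culture and the other 3 overlapped. The difference was -0.19 ± 0.10 (SE), or -0.27 without the arrays numbered 3 and 4 (limma adjusted p = 0.729 in the second case). All 6 Itgb1 probe sets had a difference below 0, from -0.19 to -0.02, including the second brightest, which averaged 3758 ± 245 in co-cultures and 4059 ± 268 in MSC-only cultures (difference -0.11 ± 0.08, SE).

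Of the remaining stromal subunits, Itga9, which binds tenascin and VCAM proteins, read 159, 203 and 277 in co-cultures and 146, 211 and 277 in MSC-only cultures. Itga5, the alpha subunit of the fibronectin receptor, was singled out after its values were seen because it followed Itgax, and read 87.1, 172 and 308 in co-cultures and 109.5, 178 and 258 in MSC-only cultures. Both genes had overlapping groups and differences under 0.01 in size, and that of Itga9 was -0.07 without the arrays numbered 3 and 4. For Itga5 the value without them is not given here and may differ from the main one. Its arrays numbered 3 and 4 read 128 and 177 in co-cultures and 166 and 226 in MSC-only cultures. The dimmer probe sets of Itga5 had differences of -0.10, -0.05 and 0.31, and its match to Itgax was read from the brightest one only. Itga8, Itga10, Itga1 and Itga7, subunits of smooth muscle, cartilage, collagen and muscle receptors, had means of 46.5, 46.0, 30.3 and 19.1 over the 12 arrays and differences of 0.17, 0.10, -0.37 and -0.09.

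Epithelial and laminin-binding subunits comprised 6 genes, 1 with the higher mean in co-cultures and 5 with the lower, and only Itga6 and Itga3 among them had a mean signal of 100 or more. Itga6, an alpha subunit of laminin receptors, read 4323, 4862 and 6320.2 in co-cultures and 4211, 5587 and 7026 in MSC-only cultures. The groups overlapped, and the difference of -0.10 ± 0.15 (SE) was 0.09 for its second probe set. Itga3, likewise an alpha subunit of laminin receptors, averaged 129 ± 36.6 in co-cultures and 137 ± 20.2 in MSC-only cultures (SD, n = 6 each). Its difference was -0.10 ± 0.17 (SE), with -0.55 and 0.09 for its dimmer probe sets. Itga2, a collagen receptor subunit, was dim at 7.2, 10.7 and 60.7 in co-cultures and 6.7, 45.9 and 56.0 in MSC-only cultures. It was above 40 in co-culture 6 and in MSC-only cultures 1 to 4, with a difference of -0.65 ± 0.35 (SE), or -0.39 without the arrays numbered 3 and 4. Itgb6, Itgb8 and Itgb4, beta subunits of epithelia and other surfaces, had means of 28.7, 28.1 and 13.0 over the 12 arrays and differences of 0.34, -0.12 and -0.04. Epithelial markers were dim as well, with sums of 225 to 356 in co-cultures and 188 to 325 in MSC-only cultures.

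The platelet and mixed subunits were Itga4, Itgb3 and Itga2b, and all 3 had slightly higher means in co-cultures. Itga4, which binds VCAM1 and holds HSCs in the marrow, read 1118, 1837 and 2087 in co-cultures and 1031, 1652 and 2250.4 in MSC-only cultures. It was lowest in co-culture 6 and MSC-only culture 4, where Itgam was highest. The difference of 0.06 ± 0.20 (SE) became -0.15 without the arrays numbered 3 and 4 and -0.18 as a mean over its 5 probe sets. Itgb3, found on platelets with Itga2b and on osteoclasts with Itgav, read 166, 364 and 639 in co-cultures and 223, 307 and 559.9 in MSC-only cultures, a difference of 0.10 ± 0.28 (SE), or 0.39 without the arrays numbered 3 and 4. Its highest arrays were co-culture 6 and MSC-only culture 4, and the groups overlapped. Itga2b, the platelet alpha subunit, averaged 172 ± 46.7 in co-cultures and 163 ± 50.9 in MSC-only cultures, a difference of 0.08 ± 0.20 (SE). Of the 6 platelet markers, Pf4 alone was bright, at 16016 ± 4373 in co-cultures and 16196 ± 4687 in MSC-only cultures, and Gp1bb, Gp5, Ppbp, Gp6 and Gp9 averaged 61.2, 51.2, 44.2, 41.8 and 23.0 over the 12 arrays. The lymphocyte markers, from cells that carry Itga4 and that the CD45 gate would remove, summed to 138 to 282 in co-cultures and 115 to 231 in MSC-only cultures, and their part was not tested.

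Among the 10 laminin chains, 3 had the higher mean in co-cultures and 7 the lower, with a median difference of -0.17, against 0.01 over all genes. Both member probe sets with an unadjusted p under 0.05 belonged to this class, and both were dim. Lamb2, the beta chain of synaptic and vascular laminins, read 31.1, 62.9 and 74.7 in co-cultures and 65.8, 100.2 and 122 in MSC-only cultures, with means of 56.5 ± 19.8 and 94.4 ± 20.5 (SD, n = 6 each). Co-cultures 1, 2 and 5 lay below every MSC-only culture. The difference was -0.64 ± 0.20 (SE; limma adjusted p = 0.996), and -0.83 without the arrays numbered 3 and 4 (adjusted p = 0.606). Lamb2 had a single probe set, so that no second one could be set beside it.

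Lama5, the alpha chain of adult basement membranes, was the only member whose groups did not overlap, and only in 1 of its 3 probe sets. The brightest probe set read 8.4, 48.1 and 49.5 in co-cultures and 57.9, 74.0 and 87.9 in MSC-only cultures, with means of 41.2 ± 16.2 and 73.6 ± 10.7 (SD, n = 6 each). Every co-culture lay below every MSC-only culture, a pattern found in 1 of 73 member probe sets and in 33 of the 45037 (0.0733%). The difference was -0.72 ± 0.23 (SE; limma adjusted p of 0.996 or more), -0.48 without co-culture 5 and -0.85 without the arrays numbered 3 and 4. The second probe set of Lama5 averaged 66.5 ± 40.9 in co-cultures and 35.0 ± 27.4 in MSC-only cultures (SD, n = 6 each), a difference of 0.66 ± 0.41 (SE) in the opposite direction, and the third, dim probe set averaged 4.65 ± 1.89 and 13.8 ± 13.0, a difference of -0.44 ± 0.22 (SE). With the 3 probe sets averaged, the Lama5 difference was -0.17.

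**Figure D5:**
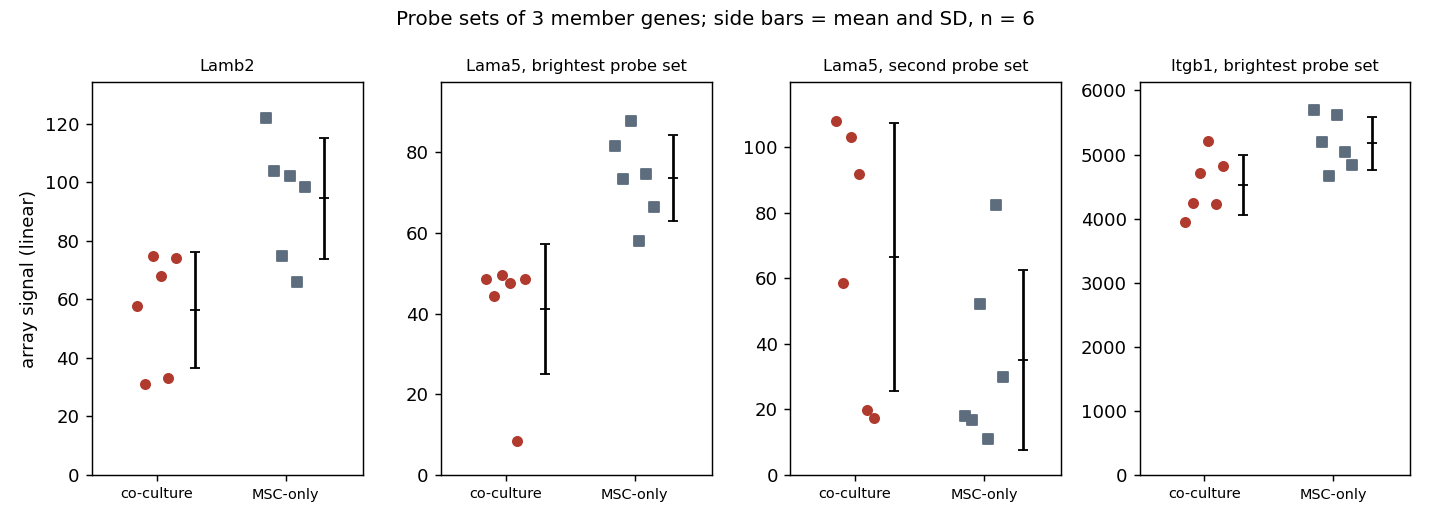
Linear array signal (y axis, from 0) of Lamb2, of the brightest and the second probe set of Lama5, and of the brightest probe set of Itgb1 in the 6 co-cultures (red circles, left) and 6 MSC-only cultures (grey squares, right), with bars for mean and SD. The groups are separate for the brightest Lama5 probe set and overlap in the other 3 panels, and the second Lama5 probe set has its higher mean in co-cultures.

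The brighter laminin chains differed little between the groups. Lamb1, the most widespread beta chain, read 1111, 1671 and 2329.7 in co-cultures and 1247, 1783 and 2453 in MSC-only cultures. It was high in co-cultures 2 and 3 and in MSC-only cultures 1, 3 and 5 and low in co-cultures 1 and 6 and MSC-only cultures 2, 4 and 6, and the difference was -0.05 ± 0.23 (SE), or -0.14 without the arrays numbered 3 and 4. Lamc1, the gamma chain of most laminins, read 138, 195 and 229.7 in co-cultures and 176, 202 and 217 in MSC-only cultures, a difference of -0.08 ± 0.11 (SE), or -0.12 without the arrays numbered 3 and 4. It had the smallest SD of the laminin chains that reached a mean signal of 100, at 0.17, and 9.47% of genes in its signal range varied less. Lama3, the alpha chain of epithelial laminin, read 112, 216 and 326 in co-cultures and 134, 164 and 364 in MSC-only cultures. The groups overlapped, and its difference of 0.19 ± 0.28 (SE) was -0.27 without the arrays numbered 3 and 4. Lama2, the alpha chain of muscle laminin, read 35.7, 102 and 125 in co-cultures and 62.2, 109.8 and 179 in MSC-only cultures, with a difference of -0.32 ± 0.30 (SE) and its lowest value in co-culture 4. The dim chains Lama4, Lamc3, Lamb3 and Lama1 had means of 64.6, 49.5, 20.0 and 13.9 over the 12 arrays and differences of -0.45, 0.12, 0.22 and -0.27. Endothelial markers, from laminin-making cells that the CD31 gate would remove, summed to 171 to 502 in co-cultures and 132 to 306 in MSC-only cultures, with Pecam1, Cdh5, Tek and Erg under 50.

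The other genes of the adhesion pathway gave a similar account. Of 29 measured adaptors that link integrins to actin and signalling, 9 had the higher mean in co-cultures and 20 the lower, with a median difference of -0.02, and 0 passed the adjusted test. At an unadjusted p under 0.05, 1 adaptor was higher, against 449 of all 18193 genes (2.47%), and 1 lower, against 267 (1.47%). Tns1, a tensin at integrin tails, averaged 527 ± 80.7 in co-cultures and 413 ± 109 in MSC-only cultures (difference 0.37 ± 0.17, SE), and Parva, the alpha-parvin partner of integrin-linked kinase, averaged 338 ± 71.2 and 428 ± 80.7 (difference -0.33 ± 0.15, SE). Fermt3, the kindlin of blood cells that activates Itgb2 integrins, averaged 14104 ± 1003 in co-cultures and 14225 ± 1352 in MSC-only cultures. Of 20 measured ligands and laminin partners, 6 had the higher mean in co-cultures and 14 the lower, with a median difference of -0.10, and 2 were lower at an unadjusted p under 0.05, against the same 1.47%. These were Ntn4, a netrin that binds laminin, at 164 ± 45.2 in co-cultures and 235 ± 50.7 in MSC-only cultures (difference -0.49 ± 0.19, SE), and F11r, a junctional ligand of Itgal, at 62.3 ± 15.4 and 88.4 ± 25.6 (difference -0.41 ± 0.18, SE). Fn1, fibronectin, averaged 15906 ± 3623 in co-cultures and 19349 ± 5334 in MSC-only cultures, and Mfge8, a secreted ligand of Itgav receptors, averaged 10203 ± 4630.4 and 8626 ± 3359 (SD, n = 6 each for all these means). Fn1 shared 1 of the 6 highest Itgax arrays and Mfge8 shared 5. The stromal markers had a median difference of -0.29, with 10 of 13 lower in co-cultures, and their part in the lower means of laminin chains and ligands was not tested.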

How the data were processed

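RNA of 12 mouse cultures was hybridised to Affymetrix Mouse Genome 430 2.0 arrays. The authors produced the deposited linear intensity of each probe set with GeneChip Operating Software 1.1.1. The summary method was not given in the sources used here, nor was the scaling target, and 0 columns were left unused. Of 45037 probe sets, 34945 carried 1 gene symbol, 932 several and 9160 none in the platform annotation. Itgad and Itga11 lacked a probe set of their own and were not analysed here.

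Intensities were used as deposited, without further scaling: the mean over the central part of each array, with 2% trimmed at either end, differed by less than 1 signal unit between arrays. Differences were tested on log2(signal + 16) with limma 3.58.1 in R 4.3.3 over all probe sets, by group alone, with Benjamini-Hochberg adjustment and a threshold of 0.05. Tables were made with Python 3.11.15 and pandas 2.3.3. The fit was tested on simulated data. No counts underlie array signals, and 6 arrays a group limit the precision.

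Members were found by symbol alone, but this rule, the classes and the lists were chosen with earlier results of these data known. Values by culture are given for the 4 brightest members of each class, members with an unadjusted p under 0.05, the 3 largest differences and the 3 largest SDs among members with a mean signal of 100 or more. From the adaptor and ligand lists the genes with the smallest p and the brightest were named. Spread was described only for genes with a mean signal of 100 or more, because a dim signal is mostly background. Promoter sequences were taken from RefSeq. Protein stretches had been intended but were not used here.

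Alternatives were quantile normalization, centring on the median or 75th percentile, added constants of 1 and 64, a mean signal of 50 or more, trend and robust options, the methods' t-test, a replicate block, the mean over a gene's probe sets, and leaving out single arrays or those numbered 3 and 4.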

Additional observations from a re-analysis of the deposited data

Results flagged for a closer look

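Among the 42 groups of 6 arrays looked at for the named members, 2 held a lone value, and chance gives about 1 in 20. Itga2 read 60.7 in co-culture 6, where the nearest other co-culture read 15.9. The gap was 0.734 of the range of that group, above the limit of 0.625. Lama5 read 8.4 in co-culture 5, where the nearest other co-culture read 44.3, and the gap was 0.916 of the range. Without co-culture 5 the Lama5 difference was -0.48. Leaving out a co-culture could not make the groups overlap, so this is no check of their separation.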

How the results depend on the processing

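No member gene had an adjusted p under 0.05 under any of the 23 alternatives, and the lowest adjusted p of a named member was 0.606, for Lamb2 without the arrays numbered 3 and 4. Of 481 recomputed differences of 21 named members, 439 kept their direction and 42 turned, and 10 members kept it throughout. The 2 calls over all probe sets became 1 with quantile normalization, median centring, 75th percentile centring, an added constant of 1 and the methods' t-test, became 0 with a constant of 64, a mean signal of 50 or more and trend and robust options, became 8 without the arrays numbered 3 and 4, and ranged from 0 (without co-culture 3 or MSC-only culture 1) to 4 (without MSC-only culture 6) with single arrays left out. The 2 member probe sets at an unadjusted p under 0.05 became 4 with quantile normalization or median centring and 5 without the arrays numbered 3 and 4, and ranged from 2 to 8 with single arrays left out, the highest without co-culture 6. The 4 with quantile normalization or median centring were all lower, against 1010 and 1065 lower of all 45037. The count was 5 without MSC-only culture 5 (1 higher and 4 lower, against 1297 and 685 of all) or 6 (0 and 5, against 1143 and 756). It was 4 without co-culture 4 (1 and 3, against 1465 and 755) or MSC-only culture 2 (1 and 3, against 1249 and 645). Whether cultures of the same number were paired is not stated. Their deviations correlated at -0.161 to 0.154, over 0.1 in 4 of 6 numbers, 1 of 6 correlated best with its own number, and Y-linked signal was near 0 for numbers 3 and 4 in both groups. With the replicate block, 0 probe sets were called and no member call changed.

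Some differences reversed. Itgb2 was -0.02 with quantile normalization and -0.03 with median centring, and Itga9 was 0.01 with 75th percentile centring and 0.0004 with a constant of 1. Without the arrays numbered 3 and 4, Itga4 was -0.15, Itgam 0.21 and Lama3 -0.27, and as a mean over probe sets Itga4 was -0.18 and Itgav 0.24. With single arrays left out, the range was -0.10 to 0.08 for Itga9, -0.06 to 0.34 for Itgal, -0.08 to 0.09 for Itgb2, -0.14 to 0.07 for Lamb1, -0.02 to 0.21 for Itga2b, -0.40 to 0.12 for Itgam, -0.12 to 0.07 for Itgb5, -0.06 to 0.18 for Itga4 and -0.07 to 0.30 for Itgb3. The cause was not tested. Signals under 50, which include 13 of the 34 genes, are near background and limit what these arrays can show.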
